A study of Mus musculus with 28 samples.

Results

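The genes described here had much lower levels in the leukaemic progenitors L-GMP than in the normal progenitors GMP: Tmem176b, Tgif2, Serpinf1, AW112010, Ppic, Dmkn and Fkbp9. They were chosen from probe sets whose annotation names exactly 1 gene, for a level at least 10-fold lower in L-GMP than in GMP. These 7 genes belong to the 16 of 8422 tested genes (0.19%) that passed this threshold, and they are measured by 9 of the 20380 probe sets that name 1 gene. Just inside the threshold lay AW112010, 11.2-fold lower, and Ctla2a, which is not among the 7 genes. Just outside it lay Slco3a1 at 9.43-fold and Bcl11a at 9.39-fold. The difference between L-GMP and GMP chose the genes, so for them it is given as a description without a test.

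The study used 28 Affymetrix arrays of RNA from mouse bone marrow in 2 experiments, which the design text calls noncomparable because the RNA was amplified on different days. In the sorted experiment the labels give HSC (lineage-negative, sca+, kit+; a fraction enriched for stem cells, 5 arrays), and 3 progenitor fractions that are lineage-negative, sca- and kit+: CMP (Fc receptor FCR+, CD34low; 4 arrays), GMP (FCR+, CD34high; 4 arrays) and MEP (FCR-, CD34-; 3 arrays). L-GMP (6 arrays) are sorted leukaemic cells that are lineage-negative, sca- and kit+ like GMP, FCR+ and CD34+; the series title ties the leukaemia to the fusion protein MLL-AF9, while the sample labels give neither the fusion, the strain nor the age of the mice. The transduced experiment compared GMP expressing GFP (3 arrays) with GMP expressing MLL-AF9 (3 arrays). Each sample held about 10000 sorted cells and about 50 ng of total RNA was labelled. No label says that replicates came from separate animals, so the p-values reflect only how far samples of a group differ, and that spread could be technical. In bulk RNA, fewer expressing cells and less RNA per cell cannot be told apart.

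The sort markers were checked first. The Fc receptor gene Fcgr3 was at the floor on all HSC and MEP arrays, 5.47 in CMP, 9.51 in GMP and 9.65 in L-GMP (mean log2 level). That near-floor value in CMP stands against the CMP titles, which give the Fc receptor as present. Cd34 was 9.57 in CMP and 8.94 in GMP, also against titles that give CMP as CD34low and GMP as CD34high. The erythroid factor Klf1 was 10.46 in MEP and at the floor in HSC, GMP and L-GMP, and the granule protease gene Elane was 12.60 in GMP and 12.36 in L-GMP. The log2 ratio of 3' to 5' control signal, a measure of RNA length, lay between 2.60 and 3.33 in GMP and between 2.72 and 2.95 in L-GMP. GFP replicate 1 had the lowest ratio of its experiment, 1.14 against 1.27 to 1.74 on the other 5 arrays.

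The 7 genes have no shared pathway by name. Tmem176b encodes a multi-pass membrane protein of intracellular compartments, known from dendritic cells and macrophages. TGIF2 is a homeodomain repressor of the TALE class that binds SMAD proteins and holds down transcription activated by TGF-beta. AW112010 is a transcript induced by interferon-gamma in immune cells. PPIC (cyclophilin C) and FKBP9 are peptidyl-prolyl isomerases that help proteins fold in the secretory pathway. SERPINF1 (pigment epithelium-derived factor) is a secreted serpin without protease inhibitor activity and is known for restraining vessel growth, and dermokine, the product of Dmkn, is secreted by differentiating keratinocytes. In normal marrow, stem and progenitor fractions give rise to all blood lineages; GMP make granulocytes and monocytes, and MEP make red cells and megakaryocytes.

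The sequences before the transcription start are shown for 5 of the 7 genes, to set the pattern of each beside its base composition. The 250 bases upstream of the start were taken from RefSeq (GRCm38.p6), which gave windows for 6 of the 7 genes. The window of Fkbp9 is not shown. Tmem176b and Dmkn have 3 windows each, some of which overlap, and 1 of each is shown. Capitals mark matches to any of 14 short motifs searched on both strands.
Tgif2 (chr2:156839757-156840006, + strand): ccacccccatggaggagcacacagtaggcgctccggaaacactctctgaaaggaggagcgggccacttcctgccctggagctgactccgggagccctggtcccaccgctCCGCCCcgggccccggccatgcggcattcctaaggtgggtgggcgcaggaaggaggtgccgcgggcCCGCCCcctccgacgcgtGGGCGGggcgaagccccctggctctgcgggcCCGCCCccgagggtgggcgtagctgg
Serpinf1 (chr11:75422624-75422873, - strand): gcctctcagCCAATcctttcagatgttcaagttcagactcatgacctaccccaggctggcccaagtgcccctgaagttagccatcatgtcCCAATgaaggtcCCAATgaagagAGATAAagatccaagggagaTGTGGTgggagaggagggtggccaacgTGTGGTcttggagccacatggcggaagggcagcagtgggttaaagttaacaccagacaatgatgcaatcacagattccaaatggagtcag
Dmkn (chr7:30763506-30763755, + strand): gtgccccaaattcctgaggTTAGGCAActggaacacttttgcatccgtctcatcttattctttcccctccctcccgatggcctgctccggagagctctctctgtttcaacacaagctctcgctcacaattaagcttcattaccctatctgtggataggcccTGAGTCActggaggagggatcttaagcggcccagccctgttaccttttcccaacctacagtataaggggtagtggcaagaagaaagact
AW112010 (chr19:11050567-11050816, - strand): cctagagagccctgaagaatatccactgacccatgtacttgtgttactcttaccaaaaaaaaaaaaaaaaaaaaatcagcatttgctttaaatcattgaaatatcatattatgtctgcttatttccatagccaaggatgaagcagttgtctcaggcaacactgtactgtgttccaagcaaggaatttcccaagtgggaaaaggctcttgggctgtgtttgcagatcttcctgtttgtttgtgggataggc
Tmem176b (chr6:48841138-48841387, - strand): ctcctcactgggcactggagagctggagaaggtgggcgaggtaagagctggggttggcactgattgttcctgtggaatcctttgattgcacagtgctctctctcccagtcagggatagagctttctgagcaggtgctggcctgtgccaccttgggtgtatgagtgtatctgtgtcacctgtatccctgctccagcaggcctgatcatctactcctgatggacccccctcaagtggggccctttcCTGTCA
The Tgif2 window held 22 CpG dinucleotides and 74.0% G and C, against medians of 6 and 52.4% over all 32851 windows, and 4 matches to the GC box (GGGCGG). A GC box was present in 32.7% of all windows. The Serpinf1 window held 3 CCAAT boxes (CCAAT, in 33.8% of windows), a GATA motif (AGATAA, in 9.99%) and 2 RUNX motifs (TGTGGT, in 14.0%). The Dmkn window held a C/EBP motif (TTGCNNAA, in 9.56%) and an AP-1 motif (TGANTCA, in 6.75%), as did its other windows, 1 of them nearly the same stretch. The Tmem176b window ended in a TGIF motif (TGACAG, in 15.9%). This was 1 site that 2 of its 3 overlapping windows share, and 1 of 3 windows of Dmkn also held a TGIF motif. The AW112010 window held no CpG, 39.2% G and C and none of the 14 motifs. These matches are descriptions of letters and not binding sites.

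**Figure D1:**
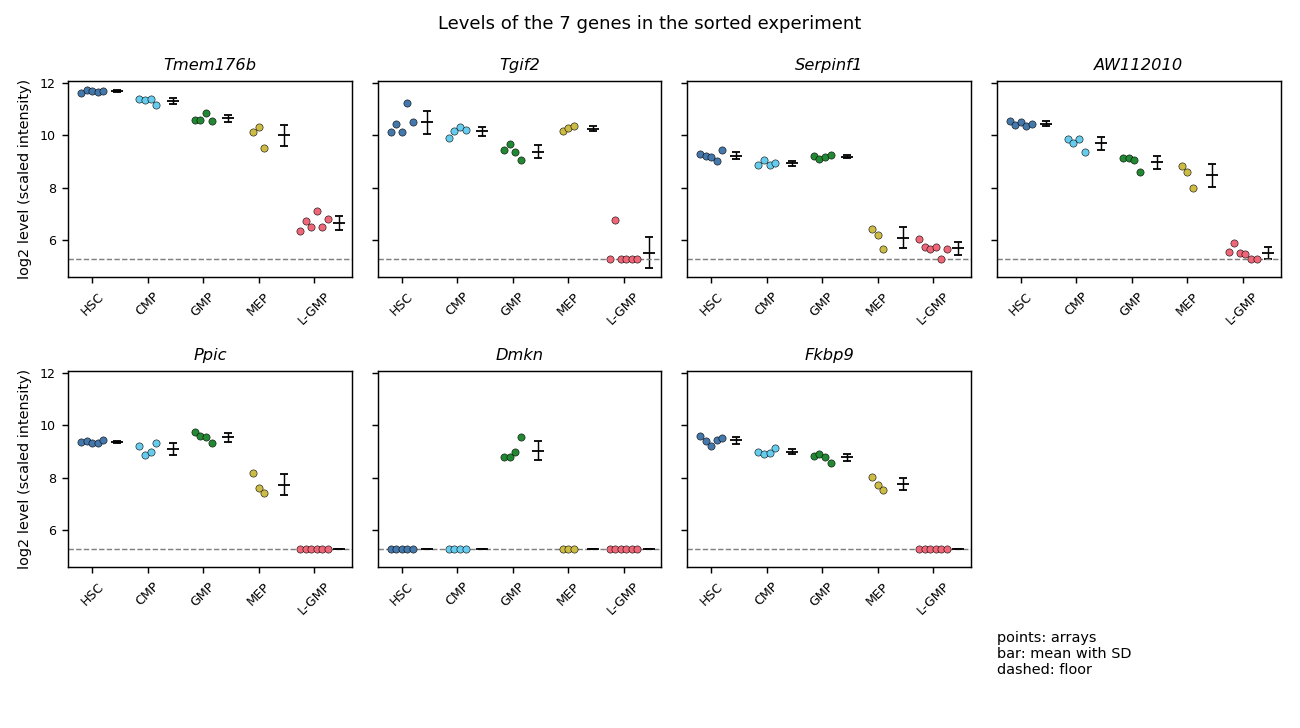
Log2 level (scaled array intensity) of the 7 genes on the 22 arrays of the sorted experiment; points are arrays, black bars give the mean with SD, and the dashed line is the floor at 5.27. All 7 genes were lowest in L-GMP or tied with it at the floor, Dmkn was above the floor only in GMP, and Serpinf1 in MEP overlapped L-GMP.

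Tmem176b was highest in HSC, followed by CMP, GMP and MEP, and lay far below all 4 in L-GMP. Its log2 level was 11.63, 11.73, 11.68, 11.66 and 11.71 on the HSC arrays, and 11.38, 11.35, 11.38 and 11.16 on the CMP arrays. It was 10.60, 10.60, 10.85 and 10.54 in GMP, and 10.13, 10.33 and 9.53 in MEP. In L-GMP the lowest, median and highest values were 6.35, 6.61 and 7.10. No neighbouring groups in this order overlapped. The mean in L-GMP was 15.8-fold lower than in GMP, and the gene stayed above the floor on all 6 leukaemic arrays. HSC exceeded MEP by 1.69 ± 0.16 (log2 difference ± SE; 3.22-fold; adjusted p = 3.76e-08), and MEP lay 1.32 ± 0.17 below CMP (adjusted p = 5.00e-06). Between HSC and CMP the difference of 0.37 ± 0.15 missed the threshold (adjusted p = 0.107), and passed it with only those groups fitted (0.00813) and with the floor at the 50th percentile (0.0452).

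AW112010 had the same order of groups as Tmem176b. Log2 levels were 10.56, 10.38, 10.51, 10.36 and 10.44 in HSC, and 9.85, 9.72, 9.87 and 9.35 in CMP. It was 9.13, 9.12, 9.06 and 8.61 in GMP, and 8.81, 8.60 and 7.99 in MEP. In L-GMP it ranged from the floor to 5.90 with a median of 5.49. HSC and CMP did not overlap, GMP and MEP did, and every leukaemic array lay below every normal array. With 2 of 6 L-GMP arrays at the floor, the 11.2-fold lower level against GMP is a lower bound. HSC exceeded CMP by 0.75 ± 0.16 (1.69-fold; adjusted p = 0.00300) and MEP by 1.98 ± 0.17 (3.95-fold; adjusted p = 1.29e-08). MEP lay 1.23 ± 0.18 below CMP (adjusted p = 3.66e-05).

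Tgif2 had another order, with GMP as the lowest normal fraction. Its log2 level was 10.14, 10.43, 10.14, 11.23 and 10.52 in HSC, 9.91, 10.18, 10.31 and 10.21 in CMP, and 10.16, 10.27 and 10.34 in MEP. These 3 groups overlapped. In GMP it was 9.42, 9.68, 9.36 and 9.05, below all arrays of the other normal fractions. In L-GMP 5 of 6 arrays were at the floor and replicate 2 read 6.75, so the 14.5-fold lower level against GMP is a lower bound. HSC and MEP differed by 0.24 (95% interval -0.35 to 0.83; adjusted p = 0.573), HSC and CMP by 0.34 (-0.20 to 0.88; adjusted p = 0.443), and MEP and CMP by 0.11 (-0.51 to 0.72; adjusted p = 0.877).

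Ppic was at a similar level in HSC, CMP and GMP and lower in MEP. On the log2 scale it read 9.38, 9.39, 9.32, 9.32 and 9.43 in HSC, and 9.20, 8.87, 8.98 and 9.34 in CMP. It was 9.74, 9.58, 9.54 and 9.32 in GMP, and 8.17, 7.62 and 7.42 in MEP. All 6 L-GMP arrays were at the floor, with scaled intensities between -2.38 and 20.5 against 638 to 857 in GMP. The level was therefore at least 19.3-fold lower than in GMP. Apart from the leukaemic arrays, MEP was the single fraction that did not overlap the others. HSC exceeded MEP by 1.63 ± 0.13 (3.10-fold; adjusted p = 4.68e-09), MEP lay 1.36 ± 0.14 below CMP (adjusted p = 3.28e-07), and HSC and CMP differed by 0.27 ± 0.12 (adjusted p = 0.161).

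The other isomerase, Fkbp9, was represented by probe set 1437687_x_at. It read 9.59, 9.39, 9.21, 9.46 and 9.50 in HSC, and 8.98, 8.90, 8.96 and 9.12 in CMP. It was 8.84, 8.90, 8.80 and 8.57 in GMP, and 8.01, 7.73 and 7.54 in MEP. All 6 L-GMP arrays were at the floor, at least 11.4-fold below GMP. No neighbouring groups overlapped, CMP and GMP only narrowly. HSC exceeded CMP by 0.44 ± 0.10 (1.36-fold; adjusted p = 0.00389) and MEP by 1.67 ± 0.10 (3.18-fold; adjusted p = 9.71e-11), and MEP lay 1.23 ± 0.11 below CMP (adjusted p = 4.80e-08).

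Serpinf1, by probe set 1416168_at, separated MEP from the other normal fractions more widely than any other of the 7. Levels were 9.28, 9.21, 9.16, 9.04 and 9.43 in HSC, and 8.87, 9.07, 8.88 and 8.93 in CMP. It was 9.20, 9.10, 9.17 and 9.25 in GMP, and 6.43, 6.18 and 5.65 in MEP. In L-GMP it ranged from the floor to 6.02 with a median of 5.69, and this range overlapped MEP. The level in L-GMP was 11.3-fold lower than in GMP, with 1 of 6 arrays at the floor, and 1.32-fold lower than in MEP. HSC exceeded MEP by 3.14 ± 0.15 (8.81-fold; adjusted p = 1.62e-12), MEP lay 2.85 ± 0.16 below CMP (7.22-fold; adjusted p = 6.34e-11), and HSC and CMP differed by 0.29 ± 0.14 (adjusted p = 0.189).

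Dmkn was above the floor in GMP alone. Its log2 level was 8.80, 8.80, 8.97 and 9.57 on the 4 GMP arrays, and it was at the floor on all 5 HSC, 4 CMP, 3 MEP and 6 L-GMP arrays. GMP was thus at least 13.6-fold above each of the other 4 groups. Dmkn passed the filter on low values only through GMP, and no comparison among HSC, CMP and MEP could be made for it. Of the other 20 genes in a list of epidermal differentiation, 8 were tested. In L-GMP against GMP 1 was higher and 1 was lower, where 15.2% and 18.3% of all genes were. Without Dmkn, the summed level of the 17 listed genes on the array ranged from 3281 to 6355 in GMP and from 3368 to 7072 in L-GMP.

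**Figure D2:**
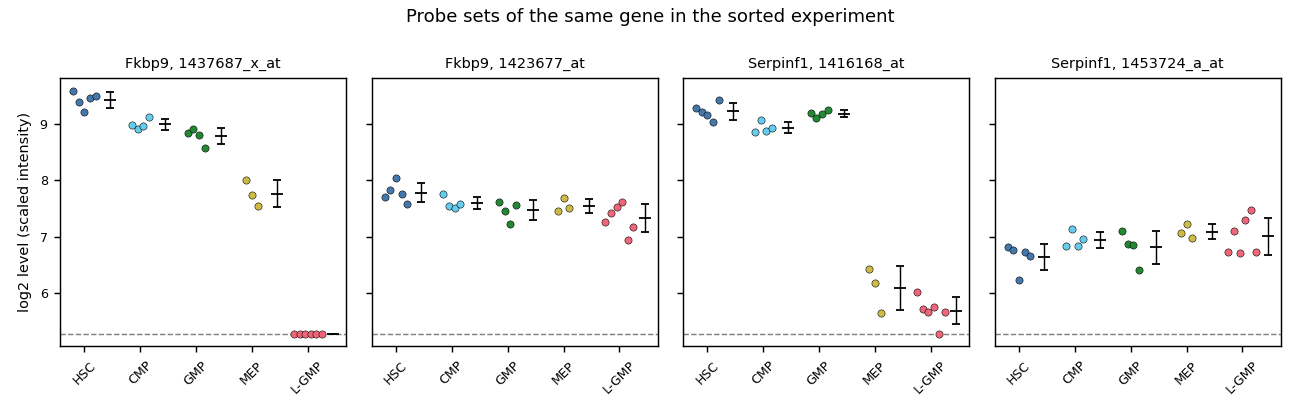
Log2 level of the 2 probe sets of Fkbp9 and the 2 of Serpinf1 on the 22 sorted arrays; points are arrays, bars give the mean with SD, and the dashed line is the floor. The first probe set of each gene was lower in L-GMP and the second overlapped between GMP and L-GMP.

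Fkbp9 and Serpinf1 each had a second probe set, and neither of these was lower in L-GMP beyond its spread. For Fkbp9, probe set 1423677_at read 7.62, 7.46, 7.22 and 7.57 in GMP, and from 6.94 to 7.62 with a median of 7.34 in L-GMP. For Serpinf1, probe set 1453724_a_at read 7.11, 6.87, 6.85 and 6.41 in GMP, and from 6.71 to 7.48 with a median of 6.91 in L-GMP. The ranges overlapped for both genes, with mean levels 1.10-fold lower and 1.14-fold higher in L-GMP. These probe sets also lacked the low level in MEP: with every kept probe set tested, HSC and MEP differed by 0.23 ± 0.14 for Fkbp9 (adjusted p = 0.221) and by -0.45 ± 0.18 for Serpinf1 (adjusted p = 0.0624). Their signals were above the floor on all 22 arrays. The near loss of Fkbp9 and Serpinf1 in L-GMP thus holds for 1 of 2 probe sets each, and which transcripts each probe set reads was not tested. In Affymetrix naming, the suffix _x_at marks a set whose probes may also match other transcripts, and _a_at a set that reads several transcripts of a gene. Among the other genes at least 10-fold lower with several probe sets, all 3 of Hspa1b were between 17.1-fold and 20.1-fold lower, all 4 of Phgdh between 5.57-fold and 12.6-fold lower, and the 7 of Ccnd2 between 1.78-fold and 19.2-fold lower. Tmem176b, Tgif2, AW112010, Ppic and Dmkn have 1 probe set each.

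The group means compared among HSC, CMP and MEP use no array that entered the choice of the genes. These comparisons share groups with each other, the choice asked for a high level in GMP, and the spread was estimated over all 22 sorted arrays. In HSC against MEP, 5 of the 6 genes above the floor were called higher in HSC, where 17.4% of all tested genes were. In MEP against CMP the same 5 genes were called lower in MEP, where 10.9% of all genes were. In HSC against CMP, AW112010 and Fkbp9 were called higher in HSC, 2 of 6 where 6.01% of all genes were. The second probe set of Fkbp9 was not called there in limma's test of every kept probe set (adjusted p = 0.379). The medians over the 6 genes were 1.68, -1.27 and 0.35 (log2 difference), and those over all genes were -0.03, 0.02 and 0.00. Tgif2 was the gene not called in any of the 3. With only the groups compared in the fit, the same 5 genes were called in HSC against MEP (adjusted p from 1.73e-05 to 0.000270) and in MEP against CMP (0.000526 to 0.0141), and 3 in HSC against CMP: AW112010 (0.00281), Tmem176b (0.00813) and Fkbp9 (0.0123).

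**Figure D3:**
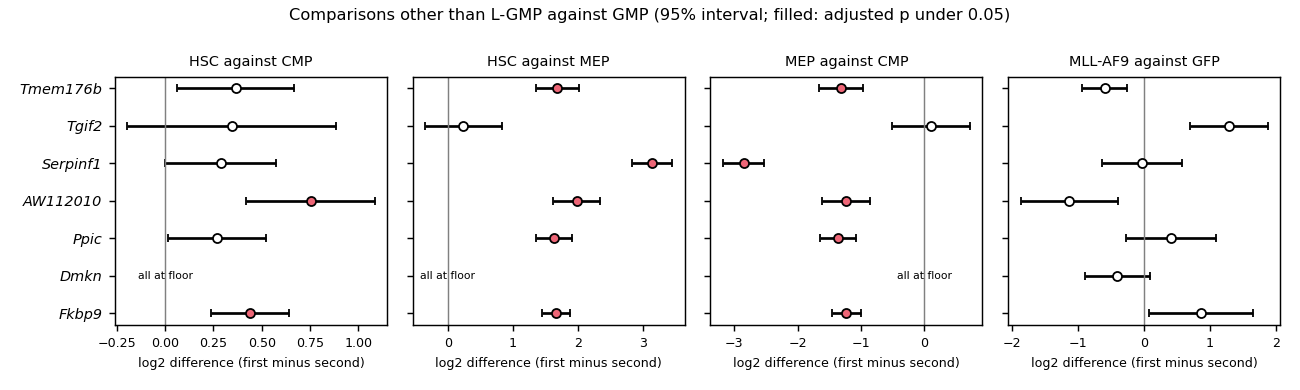
Log2 differences, first group minus second, with 95% intervals for the 7 genes in 4 comparisons whose group means use neither L-GMP nor the sorted GMP arrays; the spread behind the 3 sorted comparisons comes from all 22 arrays, and filled points have an adjusted p under 0.05. The 5 genes called were higher in HSC than in MEP and lower in MEP than in CMP. None was called in MLL-AF9 against GFP, drawn from the limma fit without pairs. With the replicate number as a block, limma's test called AW112010 there (adjusted p = 0.0165).

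Markers of several other cell types also differed between HSC, CMP and MEP. The summed level of the 13 erythroid marker genes on the array ranged from 14459 to 21557 in MEP, from 4426 to 6082 in HSC and from 4800 to 7526 in CMP. The 11 megakaryocyte markers summed to between 9054 and 9797 in MEP and between 3658 and 4232 in HSC, while CMP (6770 to 14290) overlapped MEP. The sum of the 17 markers of dendritic cells and MHC class II ran the other way, from 8098 to 9521 in HSC and from 7430 to 8378 in CMP against 4394 to 6721 in MEP. Single genes of this list went both ways. H2-Aa had a mean log2 level of 9.44 in MEP and 8.06 in CMP, and H2-Eb1 of 9.11 and 7.33. Irf8 had 9.07 in MEP and 11.02 in CMP, and Flt3 6.77 and 9.88. The 20 monocyte and macrophage markers summed to 8015 to 9510 in CMP and 4986 to 7016 in MEP, and HSC (4478 to 8387) overlapped both. The 22 stroma and endothelium markers overlapped between HSC (2389 to 3662) and MEP (2482 to 3423), and between GMP (1846 to 2316) and L-GMP (1981 to 3081). Of these, the vessel genes Cdh5, Pecam1 and Tie1 and the matrix gene Lum were at the floor on all GMP arrays; Cdh5 and Pecam1 were above it on some L-GMP arrays. The vessel genes Eng (7.68), Emcn (6.60) and Kdr (6.59) and the adhesion gene Vcam1 (7.95) were above the floor on all GMP arrays. In L-GMP against GMP, the sums did not overlap for megakaryocyte markers (1342 to 2157 in GMP, 835 to 1242 in L-GMP) or for T and NK cell markers (3292 to 3935 and 2051 to 2843). Single genes of both lists went both ways. Cd27, itself 12.6-fold lower in L-GMP, and Nkg7 (10.78 in GMP, 10.04 in L-GMP) were lower, while Cd3e (6.64 and 7.15) and Cd8a (6.78 and 7.19) were higher. F2r was 7.79 in GMP and at the floor in L-GMP, and Treml1 was 6.09 and 6.50. The mean log2 level of 27 immediate early and stress genes, which respond to cell handling, was 7.36 in GMP replicate 1, between 8.90 and 9.26 on the other 3 GMP arrays and between 7.18 and 7.93 in L-GMP. Replicate 1 was also low in HSC (8.48, others at least 9.84) and CMP (7.48, others at least 9.69). Without these 3 arrays together the counts of 5, 5 and 2 called genes were as before, and the median difference of the 7 genes between L-GMP and GMP was -3.84. The part of these markers and genes in the levels of the 7 genes was not tested.

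Across the 16 normal arrays, which share the 4 fractions, Tmem176b and AW112010 moved together with a Pearson r of 0.96, and Serpinf1 and Ppic with 0.96. Over the 10 pairs among Tmem176b, AW112010, Serpinf1, Ppic and Fkbp9, r lay between 0.59 and 0.96. Tgif2 and Dmkn ran opposite to each other, with r of -0.83. Dmkn was at the floor on all HSC, CMP and MEP arrays, so its r mainly sets GMP against the other normal fractions. These values are descriptions.

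**Figure D4:**
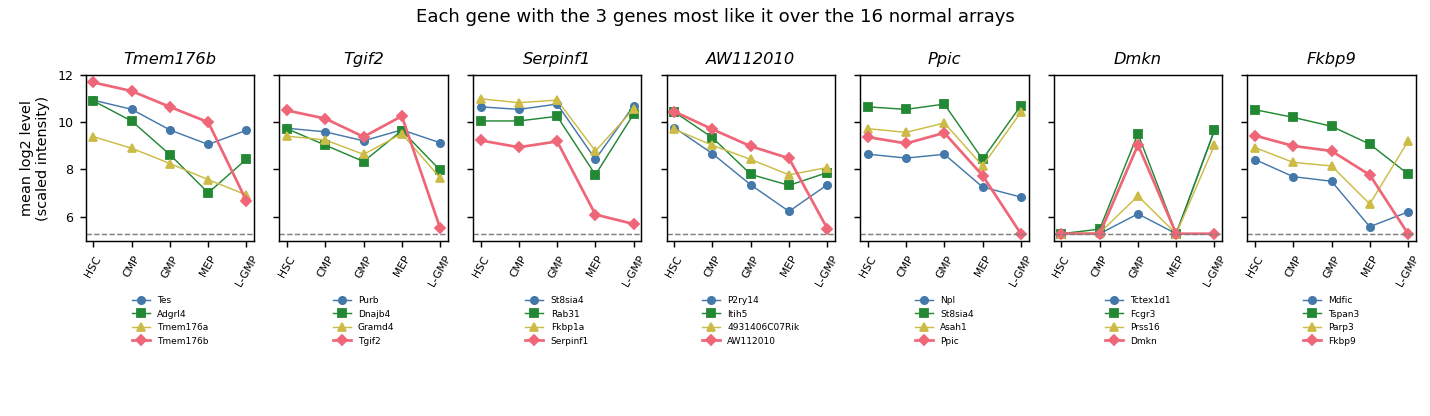
Mean log2 level of each of the 7 genes (diamonds) and of the 3 genes most like it over the 16 normal arrays, in the 5 sorted groups; the dashed line is the floor. Of the 20 companions, 6 were called lower in L-GMP than in GMP, such as Tmem176a (-1.33), 4 were called higher and 10 were not called.

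The genes most like them over the normal arrays moved both ways in L-GMP, and their choice did not ask for a low level there. Those with the 3 highest correlations to each gene, chosen on arrays that include GMP, made a set of 20 genes, of which 6 were called lower in L-GMP than in GMP, 4 were called higher and 10 were not called; 18.3% of all tested genes were called lower and 15.2% higher. Their median log2 difference was -0.07 and the lowest value was -2.02. Tes, a cytoskeletal LIM protein gene and the closest to Tmem176b, was 9.67 in GMP and 9.66 in L-GMP. St8sia4, a polysialyltransferase gene close to both Serpinf1 and Ppic, was 10.77 and 10.70. Npl, the closest to Ppic, was 8.64 and 6.83, and Mdfic, the closest to Fkbp9, was 7.50 and 6.20, both called lower in L-GMP. P2ry14, a receptor for UDP-glucose and the closest to AW112010, was 7.34 and 7.35. Fcgr3, close to Dmkn, was 9.51 and 9.65, and Tctex1d1, the closest to Dmkn, rose 11.7-fold in L-GMP (adjusted p = 8.31e-17).

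With the 6 leukaemic arrays included, the closest genes were others that fell in L-GMP, which the choice of the 7 largely fixes. Ifitm3, an interferon-induced membrane protein gene, was among the 3 closest to Tmem176b, Tgif2 and AW112010, with r of 0.98 for each over 22 arrays. Elovl6, a fatty acid elongase gene, was close to Tmem176b (0.98) and Fkbp9 (0.98), and Smad1, a transducer of bone morphogenetic protein signals, was close to Serpinf1 (0.97). Dmkn had lower values, with Hfe, an iron regulator gene, at 0.93 and Clec5a, a myeloid lectin receptor gene, at 0.89.

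Relatives of the 7 genes were compared between L-GMP and GMP, where 33.5% of all genes were called, 18.3% lower and 15.2% higher. Tmem176a, the sister gene next to Tmem176b, fell by 1.33 ± 0.15 on the log2 scale (2.52-fold; adjusted p = 4.68e-07). Among 10 other FKBP genes 6 fell and 1 rose, with a median of -0.36: Fkbp4, a partner of steroid receptor complexes, fell by 1.33 ± 0.15, Fkbp1b by 0.94 ± 0.18, and Fkbp15 rose by 0.39 ± 0.10. Among 9 other cyclophilins 4 fell, with a median of -0.26: the mitochondrial Ppif fell by 0.80 ± 0.09 and Ppib, of the endoplasmic reticulum, by 0.29 ± 0.08. Of 22 other genes for protein folding in the endoplasmic reticulum 10 fell and 2 rose, with a median of -0.41: the disulfide isomerase gene Pdia5 fell by 2.29 ± 0.30, Manf by 0.96 ± 0.14 and the chaperone gene Hspa5 by 0.90 ± 0.21, while Dnajc10 rose by 0.68 ± 0.13. The median over all genes in this comparison was near 0.

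Of 28 interferon-gamma response genes other than AW112010, 11 fell and 3 rose in L-GMP, with a median of -0.17. Of all genes, 18.3% were lower and 15.2% higher there. Rtp4 fell by 1.92 ± 0.35, the GTPase gene Gbp2 by 1.30 ± 0.20 and the chemokine gene Cxcl10 by 1.25 ± 0.25, while the peptide-loading gene Tapbp rose by 0.59 ± 0.09. In HSC against MEP, 16 of the 28 were higher and 1 was lower (median 0.57), where 17.4% of all genes were higher. The GTPase gene Gbp6 was higher by 4.09 ± 0.17 and the receptor gene Ifngr1 lower by 1.40 ± 0.16. In HSC against CMP, 12 were higher and 1 was lower, where 6.01% of all genes were higher. AW112010 was likewise higher in HSC in both comparisons.

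Of 6 other TALE homeobox genes, 2 rose in L-GMP: Pbx3 by 3.74 ± 0.14 and Meis1 by 2.24 ± 0.19 on the log2 scale, both cofactors of HOX proteins and opposite in direction to Tgif2. Of 20 TGF-beta and SMAD pathway genes, 2 fell and 2 rose, with a median of -0.02, where 18.3% of all genes were lower and 15.2% higher. Ltbp3, which holds latent TGF-beta in the matrix, fell by 2.57 ± 0.18, and Smad1 by 1.72 ± 0.11. Smad2, a transducer of TGF-beta signals, rose by 0.60 ± 0.20 and the receptor gene Tgfbr1 by 0.53 ± 0.13. In the normal fractions Ltbp3 was higher in HSC than in MEP by 2.42 ± 0.21. Of 8 other serpin genes 1 rose in L-GMP, Serpinb6a by 0.58 ± 0.13.

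Neighbours of the 7 genes in the RefSeq gene order were called about as often as all genes. Of the 5 genes on either side of each, 26 of 70 were tested and 10 were called in L-GMP against GMP, 5 higher and 5 lower, where 33.5% of all genes were called and 18.3% were lower. Tmem176a was the 1 neighbour more than 2-fold lower. Ffar2, a short-chain fatty acid receptor gene near Dmkn, rose by 0.94 ± 0.19.

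The transduced experiment set MLL-AF9 against GFP in normal GMP. None of the 7 was near loss there: each lay above the median of all probe sets on all 6 arrays. Tgif2, Ppic and Fkbp9 were higher with MLL-AF9 in all 3 numbered pairs and Tmem176b, AW112010 and Dmkn lower in all 3, while Serpinf1 was higher in 1 pair and lower in 2. In limma's test without pairs 0 of 7 were called, where 0.0276% of all genes (2 of 7235) were; 4 of the 7 had an unadjusted p under 0.05, as had 10.2% of all genes. The 4 genes whose groups did not overlap were Tmem176b, Tgif2, AW112010 and Fkbp9, where 17.5% of all genes did not.

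**Figure D5:**
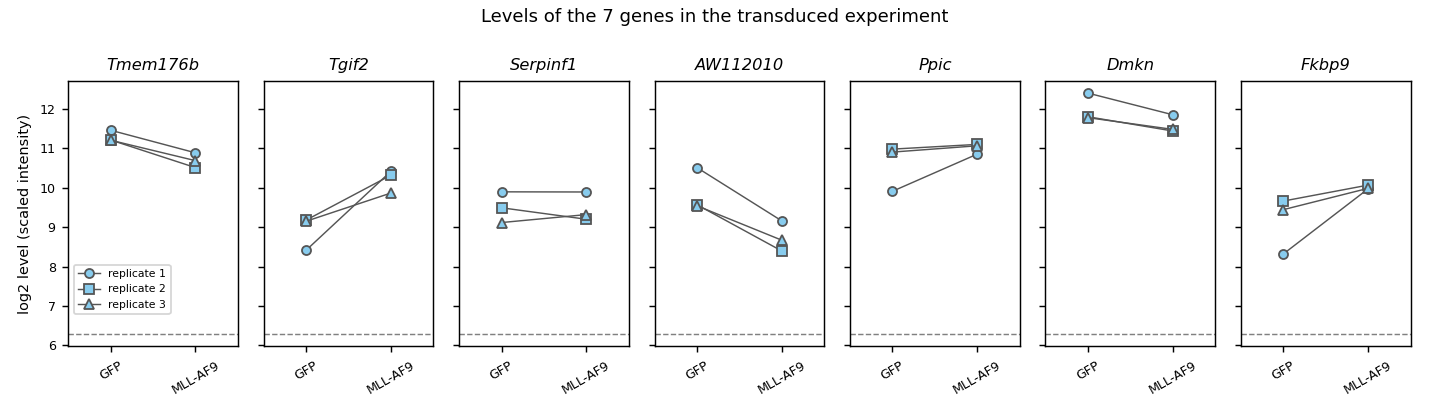
Log2 level of the 7 genes in GMP expressing GFP or MLL-AF9; lines join samples of the same replicate number and the dashed line is the floor of this experiment at 6.29. All values lie above the floor; with MLL-AF9, Tgif2, Ppic and Fkbp9 are higher and Tmem176b, AW112010 and Dmkn lower in all 3 pairs, and Serpinf1 is mixed.

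Tgif2 read 8.41, 9.18 and 9.15 with GFP, and 10.42, 10.32 and 9.87 with MLL-AF9. The difference was 1.29 ± 0.25 (2.44-fold; 95% interval 0.69 to 1.88; adjusted p = 0.315), opposite in sign to its lower level in L-GMP. AW112010 read 10.51, 9.57 and 9.54 with GFP, and 9.16, 8.40 and 8.67 with MLL-AF9. Its difference was -1.13 ± 0.31 (2.19-fold lower; adjusted p = 0.395). Samples with the same number deviated together, and with the replicate number as a block AW112010 was called (adjusted p = 0.0165), as were 126 genes in all (1.74%). Without pair 1 the blocked adjusted p was 0.0345, without pair 3 it was 0.00420, and without pair 2 the call was lost (0.142). Tgif2 missed the threshold in the blocked fit of all 3 pairs (adjusted p = 0.0684), and of the 3 fits without a pair it passed in that without pair 3 (0.00482).

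Tmem176b read 11.46, 11.21 and 11.21 with GFP, and 10.89, 10.51 and 10.69 with MLL-AF9, a difference of -0.60 ± 0.14 (1.51-fold lower; adjusted p = 0.382, and 0.0574 with the block). Fkbp9 (1437687_x_at) read 8.32, 9.66 and 9.44 with GFP, and 9.97, 10.07 and 9.99 with MLL-AF9, a difference of 0.87 ± 0.33 (adjusted p = 0.483). Ppic read 9.91, 10.98 and 10.91, and 10.85, 11.10 and 11.07, a difference of 0.41 ± 0.29 (adjusted p = 0.658). In both isomerase genes GFP replicate 1 was the low array. Without that array the differences were 0.46 for Fkbp9 and 0.06 for Ppic, and 1.04 for Tgif2, -0.81 for AW112010 and -0.51 for Tmem176b.

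Dmkn read 12.40, 11.80 and 11.78 with GFP, and 11.85, 11.44 and 11.48 with MLL-AF9, a difference of -0.40 ± 0.21 (adjusted p = 0.552; -0.20 without GFP replicate 1). Serpinf1 read 9.90, 9.49 and 9.12 with GFP, and 9.89, 9.20 and 9.32 with MLL-AF9, a difference of -0.03 (95% interval -0.64 to 0.58; adjusted p = 0.985). These 2 genes overlapped between the groups. The median difference over the 7 genes was -0.03 and that over all genes was 0.02. The interval that reached lowest was that of AW112010, down to -1.87.

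Marker sums also moved between GFP and MLL-AF9. The 20 monocyte and macrophage markers on the array summed to 75968, 56673 and 49917 with GFP, and to 42404, 23787 and 31349 with MLL-AF9. Every MLL-AF9 array was thus below every GFP array, and GFP replicate 1 had the highest sum. The same array had the highest neutrophil sum. For the 22 stroma and endothelium markers it read 10329, against 4699 to 5292 on the other arrays. The 12 neutrophil markers summed to between 23480 and 47335 with GFP and between 14110 and 27012 with MLL-AF9, and overlapped. The sums also did not overlap for 28 immediate early and stress genes (24450 to 37355 with GFP, 18792 to 24125 with MLL-AF9), 11 megakaryocyte markers (2677 to 2770 and 2111 to 2512) and 11 T and NK cell markers (5064 to 5783 and 4376 to 4980). Single megakaryocyte and T and NK cell markers went both ways. Pf4 (9.17 with GFP, 8.22 with MLL-AF9) and Nkg7 (11.66 and 11.31) were lower with MLL-AF9. F2r (7.67 and 8.08), Cd27 (6.68 and 7.78) and Cd3e (7.97 and 8.46) were higher. The part of these markers and genes in the levels of the 7 genes in this experiment was not tested. Among the relatives, limma's test called 0 of 8 FKBP genes (3 with an unadjusted p under 0.05), 0 of 18 interferon-gamma response genes (1), 0 of 17 TGF-beta and SMAD pathway genes (2), 0 of 9 cyclophilins (0) and 0 of 22 folding genes of the endoplasmic reticulum (1).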

How the data were processed

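The authors deposited linear intensity values per probe set, computed with MAS5 per the submitters' processing notes; no version or scaling target is given in the sources used here. Between 187 and 413 values of an array were at or below 0. After scaling, a change in total RNA per cell cannot be seen. The number of arrays per group, 3 to 6, limits the precision.

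Within each experiment, arrays were scaled to a common mean after trimming 2% at each end (factors 0.923 to 1.12), values below the experiment's 25th percentile were set to that floor (78.0 transduced, 38.7 sorted), and log2 was taken. A log2 fold change therefore understates differences that reach the floor. The 64 control probe sets, 691 that name several genes and 1555 that name none were left out. Probe sets above the experiment's median on at least 3 arrays were kept, and the one of highest mean represented a gene, leaving 7235 transduced and 8422 sorted genes. All 7 genes passed in both. The 6 transduced arrays and the 22 sorted arrays were fitted separately with limma 3.58.1 (R 4.3.3; lmFit and eBayes), adjusted over all genes by Benjamini-Hochberg with a threshold of 0.05. The procedure was tested on simulated data. Figures were drawn with matplotlib 3.10.9.

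The 7 genes and all gene lists were chosen with earlier results of these data known. Named are the 7 genes, the 3 genes of highest Pearson r to each over 22 and over 16 arrays, and up to 6 called genes of each list by size of change; neighbours and lineage markers were named after their values were seen. Titles of the samples gave group and replicate number. Deviations from group means correlated between same-numbered samples in the transduced experiment (r of 0.379 to 0.596 in 3 of 3 pairs), so these numbers were taken to pair the samples, and a fit with the replicate block is given where it changes a call. In the sorted experiment 18 of 37 such pairs exceeded 0.1 (r of -0.493 to 0.528), and no pairing was assumed. Alternatives changed the scaling, floor, filter, probe set choice, block, 3'/5' ratio as covariate, arrays in the fit and each replicate.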

Additional observations from a re-analysis of the deposited data

Results flagged for a closer look

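In 4 of 31 groups of 4 to 6 arrays examined for the 7 genes, 1 array lay far from the others by Dixon's test at 95%, which chance gives in about 1 in 20 groups. Tmem176b in CMP replicate 4 read 11.16, against 11.35 to 11.38 on the other CMP arrays. AW112010 in GMP replicate 4 read 8.61, against 9.06 to 9.13. The second probe set of Serpinf1 (1453724_a_at) in HSC replicate 3 read 6.23, against 6.65 to 6.82. Tgif2 in L-GMP replicate 2 read 6.75, while the other 5 L-GMP arrays were at the floor of 5.27. The floor makes those 5 values equal, so any value above it would have been flagged. This flag therefore cannot be set against the rate of 1 in 20.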

How the results depend on the processing

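HSC against MEP and MEP against CMP kept 5 called genes of the 7 under every alternative run. In these runs the probe set of highest mean represented each gene. On their second probe sets, Fkbp9 and Serpinf1 were called in neither comparison by limma's test of every kept probe set. Adjusted p was 0.221 and 0.0624 for HSC against MEP, and 0.903 and 0.679 for MEP against CMP. By the same test the second probe set of Fkbp9 was not called in HSC against CMP either (0.19 ± 0.13, adjusted p = 0.379). In HSC against CMP the count of 2 became 1 with a floor at the 10th percentile, where Fkbp9 was lost, 4 with a floor at the 50th and 3 with only the groups compared (Tmem176b gained, adjusted p = 0.00813); the genes called there ranged from 689 to 1210 on leaving out 1 replicate, lowest without CMP replicate 4. In MLL-AF9 against GFP, leaving out any 1 array gave 0 of the 7 genes and 0 genes in all, and 1 gene in all was called without the filter, with every probe set and with the 3'/5' ratio as covariate. With the replicate block 1 of the 7 was called, 1 without pair 1, 0 without pair 2 and 2 without pair 3, and 126 genes in all, becoming 63, 8 and 233 without pairs 1, 2 and 3; leaving out pairs was chosen after seeing the data. The replicate block changed no other call of the 7 genes. The Serpinf1 difference between MLL-AF9 and GFP turned positive without MLL-AF9 replicate 2 (0.10), MLL-AF9 replicate 3 (0.04), GFP replicate 1 (0.17; leaving out 1 array gave -0.24 to 0.17) and, with the block, pair 2 (0.099). The median difference of the 7 genes between L-GMP and GMP was -3.76 on the log2 scale, -4.22 with a floor at the 10th percentile and -2.43 with a floor at the 50th, since a higher floor hides more of the difference; on its second probe set Serpinf1 was 0.19 higher in L-GMP. For single genes, 562 of the other values kept direction and call, 10 moved, 7 gained a call, 1 lost it and 5 reversed.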
